A study of Mus musculus with 24 samples.

Results

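Pleiotrophin (PTN), its only close relative midkine (MDK) and the cell surface proteins reported to bind them were followed as one group of genes. The members were given by name, with earlier results of these data known, as Ptn, Mdk, Ptprz1, Sdc1, Sdc2, Sdc3, Sdc4, Lrp1 and Ncl. All 9 were present among the 12091 genes of the deposited table, and each was described in the 24 samples.

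Tumors came from 2 mouse models of breast cancer in which PTN was blocked with an antibody. 4T1 mammary carcinoma cells were implanted in the mammary fat pad of female BALB/c mice at 8 wk of age, and the mice were treated once tumors were palpable. *MMTV-PyMT* mice on the FVB/N background, in which a mammary promoter drives the polyoma middle T antigen, were treated from 8 to 12 wk of age. In each model, 3 tumors from mice given the control IgG C44 were compared with 3 from mice given 3B10, an antibody that binds PTN and not MDK, at 15 mg/kg and 2 doses per week. Cells came from E0771, a poorly metastatic C57BL/6 mammary adenocarcinoma line, and from E0771-LG, a derivative taken from a lung lesion of E0771. Each line carried the control vector (shCtrl) or 1 shRNA against PTN (shPTN), with 3 replicates per group. The cells were grown without host tissue and were kept in puromycin at 3 µg/ml for 6 wk, so that separately selected populations cannot be told apart from an effect of the shRNA. An antibody acts on the secreted protein, whereas an shRNA acts on the transcript, so that the tumor and cell experiments tested different interventions.

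PTN and MDK are small secreted growth factors that bind heparin. PTPRZ1 is a receptor tyrosine phosphatase carrying chondroitin sulfate chains, syndecans 1 to 4 are transmembrane proteoglycans carrying heparan sulfate, LRP1 is a large endocytic receptor of the LDL receptor family, and nucleolin, encoded by Ncl, is an abundant nucleolar protein that also occurs at the cell surface. None of these transcripts measures binding, shedding or signaling by its protein.

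The members lay apart on 7 chromosomes in GRCm38, except for the pairs on chromosome 6 (Ptn and Ptprz1) and chromosome 2 (Mdk and Sdc4). Ptn spans chr6:36714929-36810220 on the minus strand and Ptprz1 spans chr6:22875502-23052916 on the plus strand. Promoters of 7 of the 9 members could be matched in RefSeq for GRCm38.p6, as the 250 bases before and 50 bases after the transcription start. Those of Ptn, Ptprz1, Sdc1 and Sdc4 are shown as examples among the members called with shPTN in at least 1 line, in lower case with motif matches in capitals. That of Sdc3, which had 3 GC boxes, is not shown. The Ptn promoter (chr6:36810130-36810429, minus strand) had a GC content of 52%, close to the median of 52.7% over all promoters, and no match to any of the 4 motifs searched.
Ptn promoter: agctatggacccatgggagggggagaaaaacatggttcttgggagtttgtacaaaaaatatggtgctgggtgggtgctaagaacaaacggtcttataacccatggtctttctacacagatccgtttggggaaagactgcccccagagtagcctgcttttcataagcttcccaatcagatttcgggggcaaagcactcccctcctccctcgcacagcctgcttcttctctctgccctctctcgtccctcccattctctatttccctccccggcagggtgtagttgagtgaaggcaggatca
The Ptprz1 promoter (chr6:22875252-22875551, plus strand) had a GC content of 71.7% and 2 matches to the GC box.
Ptprz1 promoter: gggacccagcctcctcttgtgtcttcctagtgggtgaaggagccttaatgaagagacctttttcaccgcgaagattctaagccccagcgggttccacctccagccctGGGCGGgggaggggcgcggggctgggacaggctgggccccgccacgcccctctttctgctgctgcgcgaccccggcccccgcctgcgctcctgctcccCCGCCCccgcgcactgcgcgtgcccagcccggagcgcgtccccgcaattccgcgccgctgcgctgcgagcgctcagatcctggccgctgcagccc
The Sdc1 promoter (chr12:8771146-8771445, plus strand) had 3 GC boxes and 1 match to the NF-κB consensus.
Sdc1 promoter: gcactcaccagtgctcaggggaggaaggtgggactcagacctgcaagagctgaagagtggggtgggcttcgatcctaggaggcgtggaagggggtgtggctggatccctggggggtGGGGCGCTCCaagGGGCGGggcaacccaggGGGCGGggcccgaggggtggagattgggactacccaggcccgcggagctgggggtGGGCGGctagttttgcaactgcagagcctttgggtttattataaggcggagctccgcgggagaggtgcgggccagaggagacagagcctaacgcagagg
The Sdc4 promoter (chr2:164443139-164443438, minus strand) had 4 GC boxes and 1 match to the NF-κB consensus, directly beside a GC box.
Sdc4 promoter: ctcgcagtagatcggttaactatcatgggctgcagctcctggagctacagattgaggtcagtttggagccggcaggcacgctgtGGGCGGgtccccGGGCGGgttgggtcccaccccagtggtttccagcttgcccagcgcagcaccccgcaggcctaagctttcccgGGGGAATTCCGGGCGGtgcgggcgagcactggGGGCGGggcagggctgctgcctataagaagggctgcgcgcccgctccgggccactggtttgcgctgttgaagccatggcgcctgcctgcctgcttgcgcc
The GC box (GGGCGG) occurred in 35.7% of the 32851 promoters and in 6 of the 7 matched members, all but Ptn. The NF-κB consensus occurred in 8.46% of promoters and in 2 members, Sdc1 and Sdc4. No member matched the AP-1 motif (TGANTCA, 7.81% of promoters) or the TATA box (TATAAA, 13.6%). These matches describe the sequence, and binding of a factor was not measured.

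Nucleolin and syndecans 1, 2 and 4 were among the abundant members in every experiment, and both ligands were far below them. Levels of different genes were compared as log2 CPM per kb of exons, on which a difference of 1 is a 2-fold difference. In E0771shCtrl cells the order was Ncl (7.20), Sdc1 (5.94), Sdc4 (5.77), Sdc2 (5.31), Lrp1 (4.36), Mdk (1.59), Ptn (0.67), Sdc3 (−3.67) and Ptprz1 (−3.94). Of the 8 neighboring pairs in this order, 6 differed beyond the spread of the samples, and Sdc1 with Sdc4 and Sdc3 with Ptprz1 did not. E0771-LGshCtrl cells also had Ncl highest (7.71), followed by Sdc1 (6.13), Sdc4 (6.04), Sdc2 (4.93), Ptn (2.19), Lrp1 (1.98), Mdk (−0.83), Ptprz1 (−4.08) and Sdc3 (−4.81). Ptn could not be placed apart from Lrp1 there, nor Ptprz1 from Sdc3. MDK was the more abundant ligand in E0771shCtrl cells and PTN in E0771-LGshCtrl cells, on the per kb scale. Control *MMTV-PyMT* tumors had Sdc4 highest (7.34), then Ncl (6.26), Sdc2 (4.89), Sdc1 (4.82), Sdc3 (4.80), Lrp1 (2.17), Mdk (1.64), Ptn (1.20) and Ptprz1 (−0.47). Only 4 of the 8 neighboring pairs were apart in these tumors, since Sdc1 was not separated from Sdc2 or Sdc3 and Mdk was not separated from Lrp1 or Ptn. Syndecan 3 and Ptprz1 were thus well measured in *MMTV-PyMT* tumors and rested on few reads in the control cells (2 to 14 and 8 to 33 per sample). The values of 4T1 tumors lay on a scale of their own and were taken as already normalized for gene length, which was not tested. Within that scale Sdc4 (9.05), Ncl (8.44), Sdc2 (8.40) and Sdc1 (7.73) headed the C44 tumors, Lrp1 (6.90) and Sdc3 (6.74) followed, and Mdk (2.32), Ptn (−0.32) and Ptprz1 (−0.85) were last.

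**Figure D1:**
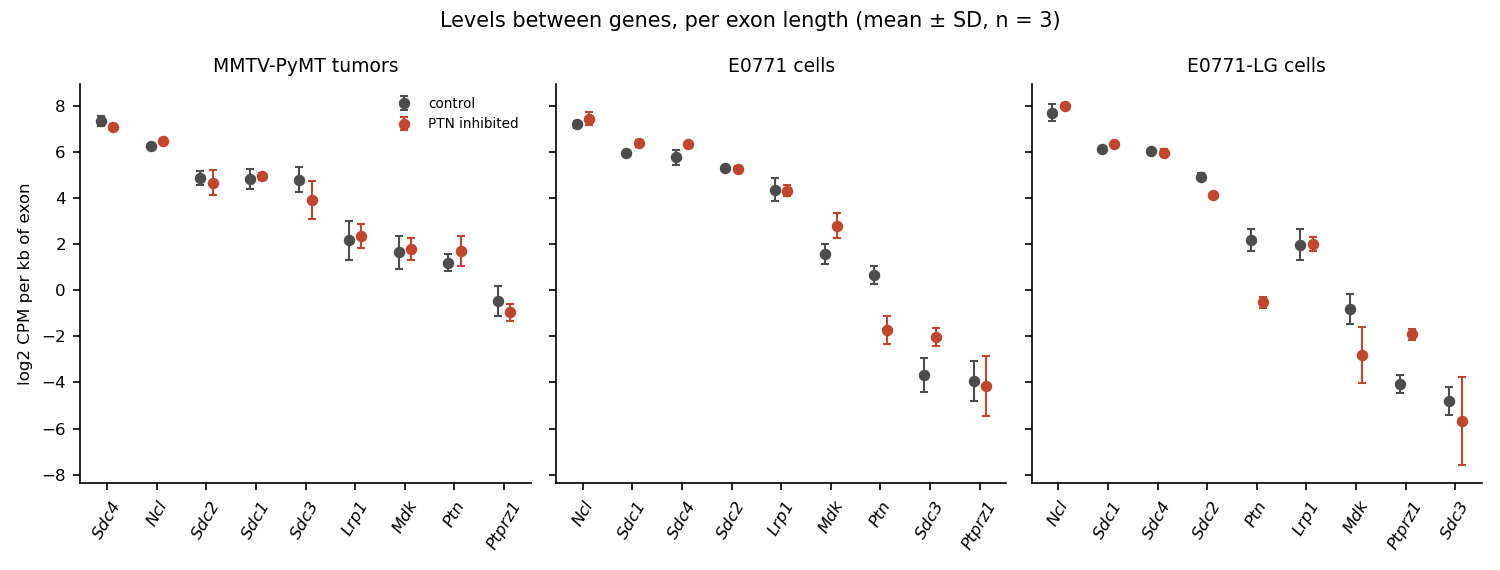
Levels of the 9 members in the 3 experiments with recoverable reads, as log2 CPM per kb of exons. Marks are means of 3 samples with SD, gray for controls and red with PTN inhibited, in the order of the controls.

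Marks that lie within each other's bars mean that the order of those members cannot be given. The exon length used is the union of a gene's exons, and lengths of single transcripts would move 18 of the 54 group levels by more than their SD. Reads of overlapping genes may also enter the sums. Sdc3 shares 415 exon bases (6.93% of its exons) with Gm26716 on the other strand, and strand-specific counting was not stated. Ncl shares 133 exon bases (1.31%) with the small nucleolar RNA Snora75 on its own strand, which strand-specific counting would not separate.

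Loss of PTN was first checked in each E0771 sample. Ptn was 2.90, 2.18 and 2.28 log2 CPM in E0771shCtrl replicates 1 to 3 and −0.63, 0.25 and 0.53 in E0771shPTN replicates 1 to 3, from 128, 92 and 80 reads against 12, 21 and 22. Every shPTN replicate was below every shCtrl replicate. Ptn fell by 2.40 ± 0.37 on the log2 scale (limma, adjusted p = 0.00159), and the depletion was therefore clear but incomplete in RNA. These p-values, like all below, measure the spread between replicates, and with 3 against 3 samples the smallest exact permutation p is 0.1.

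Midkine and syndecans 1 and 4 were higher in E0771 cells with the PTN shRNA. Of the 8 members tested, 5 differed at an adjusted p under 0.05 (20.6% of all genes tested did), with 1 lower (11.7% of genes) and 4 higher (8.89%). The 1 lower is Ptn itself, the target of the shRNA. Groups did not overlap for the same 5 members (39.4% of genes). Ptprz1 did not pass the filter on low values, and Sdc3 passed it only through its shPTN samples, so that it had to be high there to be tested at all. With no filter 4 members were called and Sdc3 was not, and these counts describe the members and test no set. The median log2 fold change was 0.34 over the tested members and −0.03 over all genes.

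Mdk, the other ligand, had values of 1.92, 1.59 and 2.46 in E0771shCtrl and 3.66, 2.60 and 3.36 in E0771shPTN replicates. The lowest shPTN sample, replicate 2, was only 0.14 above the highest control, replicate 3. Mdk rose by 1.21 ± 0.31, or 2.32-fold (limma, adjusted p = 0.0183). Its call ended when all 24 samples were fitted together (adjusted p = 0.162, limma). That fit pools the spread of all groups, on both scales, and why the call ended was not tested. The call of Mdk also ended when shCtrl replicate 2 or shPTN replicate 3 was left out (adjusted p = 0.077 and 0.0775, limma).

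Syndecan 1, the main syndecan of epithelial cells, was at 7.75, 7.92 and 7.93 in E0771shCtrl and 8.46, 8.15 and 8.32 in E0771shPTN cells. All 3 shPTN replicates lay above all controls, and the increase was 0.44 ± 0.10 (limma, adjusted p = 0.00935). The fit of all 24 samples gave an adjusted p of 0.0869 (limma). Syndecan 4, a component of focal adhesions, had values of 6.80, 7.44 and 7.13 with shCtrl and of 7.75, 7.74 and 7.66 with shPTN. The shPTN replicates were close together and above the controls, which were more spread, and Sdc4 rose by 0.59 ± 0.14 (limma, adjusted p = 0.0129). For Sdc3, known best from neurons, the shCtrl values were −0.25, −1.65 and −1.35 and the shPTN values 0.22, 0.44 and 1.01. These came from 14, 6 and 6 reads against 22, 24 and 31, so that the groups were apart but the counts small. Sdc3 had a log2 fold change of 1.64 ± 0.51 (limma, adjusted p = 0.0442) that stayed under the threshold in only 4 of 14 alternative analyses. With a pseudocount of 1 it was 0.74 (limma, adjusted p = 0.0528). Syndecan 2 was not past the threshold, with shCtrl values of 7.12, 7.20 and 7.06 and shPTN values of 7.02, 7.25 and 7.0. Its groups overlapped and its log2 fold change was −0.04 (limma, adjusted p = 0.811).

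The receptors outside the syndecan family were not past the threshold in E0771 cells. Lrp1 was 7.96, 8.62 and 8.93 with shCtrl and 8.35, 8.29 and 8.75 with shPTN, with all shPTN replicates inside the range of the controls (−0.04; limma, adjusted p = 0.93). Ncl was 10.72, 10.53 and 10.41 with shCtrl and 10.54, 11.10 and 10.72 with shPTN. The groups overlapped, and the log2 fold change of Ncl was 0.24 (limma, adjusted p = 0.255). Ptprz1 had values of −1.02, 0.71 and −0.01 with shCtrl and −0.14, −1.71 and 0.87 with shPTN, from 5 to 33 reads per sample. Its groups overlapped and it was not tested in the filtered fit, whereas a fit over all genes of the table gave −0.22.

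Depletion of Ptn was also clear in the lung derivative. Ptn was 3.65, 4.51 and 3.74 log2 CPM in E0771-LGshCtrl replicates and 1.42, 0.98 and 1.38 in E0771-LGshPTN replicates, from 216, 446 and 248 reads against 56, 35 and 45. No shPTN replicate reached a control, and Ptn fell by 2.71 ± 0.28 on the log2 scale (limma, adjusted p = 6.3e-05).

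In E0771-LG cells with the PTN shRNA, Ptprz1 was higher and syndecan 2 was lower. Of the 7 members tested, 3 differed at an adjusted p under 0.05 (46.4% of all genes tested did), with 2 lower (22.1% of genes), of which 1 is the target Ptn, and 1 higher (24.3%). Groups did not overlap for 4 of the 7 members tested (57.1% of genes). Mdk and Sdc3 did not pass the filter. Ptprz1 passed through its shPTN samples and 1 control, so that it had to be high with shPTN to be tested. The median log2 fold change was 0.01 over the tested members and 0.05 over all genes.

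Ptprz1, the receptor phosphatase, was at −0.36, 0.20 and −0.57 in E0771-LGshCtrl and at 1.72, 2.19 and 1.84 in E0771-LGshPTN cells. The groups were far apart, with 13, 22 and 12 reads in the controls and 69, 82 and 62 with shPTN. Ptprz1 rose by 2.16 ± 0.38, or 4.47-fold (limma, adjusted p = 0.0012). Even so, it stayed a rare transcript at −1.91 log2 CPM per kb in E0771-LGshPTN cells. With a pseudocount of 1 its increase was 1.38 on the log2 scale. The call of Ptprz1 held in all 14 alternatives with a value for it, also without the filter.

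Syndecan 2 had values of 6.91, 6.64 and 6.69 with shCtrl and of 6.04, 5.86 and 5.97 with shPTN. Every shPTN replicate was below every control, and Sdc2 fell by 0.79 ± 0.11 on the log2 scale (limma, adjusted p = 0.000276). Syndecan 1 was 8.09, 8.04 and 8.06 with shCtrl and 8.28, 8.28 and 8.22 with shPTN. Its groups did not overlap, but the log2 fold change of 0.20 ± 0.08 did not pass the threshold (limma, adjusted p = 0.0719), except without the filter, with quantile scaling or without shCtrl replicate 1. Syndecan 4 was 7.34, 7.47 and 7.35 with shCtrl and 7.14, 7.43 and 7.38 with shPTN. Its groups overlapped (−0.07; limma, adjusted p = 0.614). Sdc3 was nearly absent, with 5, 4 and 2 reads in the controls and 8, 2 and 0 with shPTN, and its level cannot be told apart between these groups.

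Lrp1 was 5.36, 6.54 and 6.48 in E0771-LGshCtrl and 5.79, 6.30 and 6.32 in E0771-LGshPTN cells. Control replicate 1 was low, the groups overlapped and the log2 fold change was 0.01 (limma, adjusted p = 0.987). Ncl was 10.67, 11.18 and 11.34 with shCtrl and 11.50, 11.33 and 11.25 with shPTN. Replicate 1 was again the lowest control, and the log2 fold change of Ncl was 0.30 (limma, adjusted p = 0.171). It was 0.44 without shCtrl replicate 3 (limma, adjusted p = 0.0461), but 0.10 without shCtrl replicate 1 and 0.08 with quantile scaling (limma, adjusted p = 0.321 and 0.776).

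Mdk was scarce in this line. Its values were 0.31, −0.90 and −0.69 in E0771-LGshCtrl and −3.82, −1.71 and −1.66 in E0771-LGshPTN cells, from 21, 10 and 11 reads against 1, 5 and 5. The groups did not overlap, with shPTN replicate 1 far below the rest. Mdk was not tested in the filtered fit, and the fit over all genes of the table gave −1.97 ± 0.69 (limma, adjusted p = 0.0613). This size rested on the lowest counts, since it was −0.54 with a pseudocount of 1 and −1.26 without shPTN replicate 1. It passed the threshold in the fit of all 24 samples and with quantile scaling (−2.50), at an adjusted p of 0.00656 and 0.027 (limma).

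**Figure D2:**
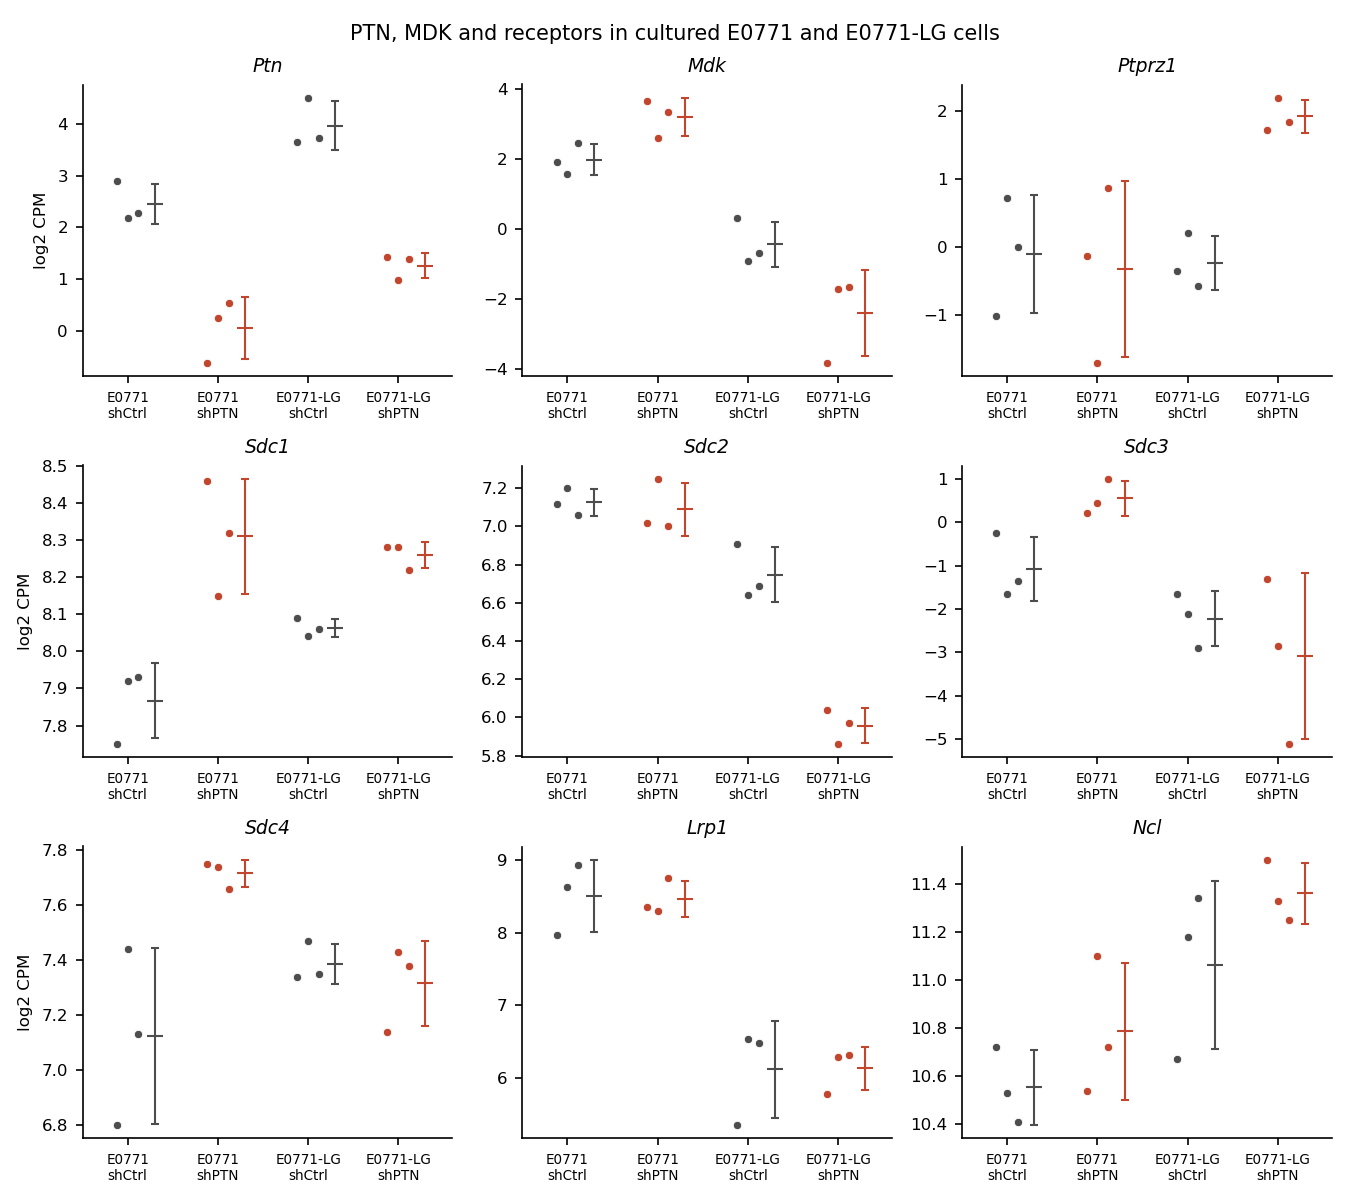
Log2 CPM of each member in the 4 groups of E0771 and E0771-LG cells. Points are replicates, and bars show the mean and SD of 3.

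The panel of Mdk shows points that move up with shPTN in E0771 cells and down in E0771-LG cells. Those of Sdc2 and Sdc4 each show a shift in 1 line and level points in the other. Each panel has its own axis, so that heights are comparable within a gene only.

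The response to the PTN shRNA differed between the lines for syndecans 2 and 4 by the interaction term, a share of the tested members close to that of all genes. A negative interaction means a lower log2 fold change in E0771-LG than in E0771 cells. Of the 6 members that could be tested, 2 (33.3%) differed at an adjusted p under 0.05 (34.7% of all genes tested did), both with a negative term (16% of genes). Sdc2 had an interaction of −0.75 ± 0.14 (limma, adjusted p = 0.00133), with its decrease seen in E0771-LG cells. Only the fit of all 24 samples ended this call (adjusted p = 0.0507, limma). Sdc4 had an interaction of −0.66 ± 0.18 (limma, adjusted p = 0.0129), with its increase seen in E0771 cells. For Sdc1, past the threshold in E0771 cells alone, the interaction was −0.25 (limma, adjusted p = 0.138), so that a difference between the lines was not shown. The depletion of Ptn itself differed by −0.30 (limma, adjusted p = 0.647), and by −0.64 to −0.03 when single samples were left out. Ncl (0.06) and Lrp1 (0.05) had interactions close to 0. The median interaction was −0.28 over the tested members and 0.08 over all genes.

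Mdk, Ptprz1 and Sdc3 could be tested between the lines only in the fit over all genes of the table, a choice made after the data had been seen. Mdk had an interaction of −3.18 ± 0.80 (limma, adjusted p = 0.0111), which stayed past the threshold in all 19 alternatives to that fit. Its size did not hold, at −1.58 with a pseudocount of 1 and −2.48 without E0771-LGshPTN replicate 1. Ptprz1 had an interaction of 2.39 ± 0.85 (limma, adjusted p = 0.0499), which passed in 7 of 19 alternatives and was 1.43 with a pseudocount of 1. For Sdc3 the value was −2.52 ± 1.12 (limma, adjusted p = 0.109). It passed in 2 of 19 alternatives, with a pseudocount of 1 (−0.80; limma, adjusted p = 0.0289) and without E0771-LGshPTN replicate 1 (−3.41; limma, adjusted p = 0.0219). Counts of Mdk in E0771-LGshPTN cells and of Ptprz1 in E0771 cells were so low that a few reads shift these terms.

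Without the PTN shRNA, the lung derivative had more Ptn and less Lrp1 and syndecan 2 than E0771. The controls of the lines were compared as E0771-LGshCtrl against E0771shCtrl, and these are the same samples as above, so that this comparison does not stand apart from the shRNA effects. Of the 6 members tested, 4 differed at an adjusted p under 0.05 (57.5% of all genes tested did), with 2 lower (37.5% of genes) and 2 higher (20.1%). Ptn was higher in every E0771-LG control, by 1.51 ± 0.34 or 2.86-fold (limma, adjusted p = 0.00152). Lrp1 had the largest difference of the members in the filtered fit, and fell by 2.38 ± 0.33 on the log2 scale, which is 5.19-fold (limma, adjusted p = 0.000121). The reads on Lrp1 were 4290, 8025 and 8126 in E0771 and 712, 1822 and 1655 in E0771-LG controls, with replicate 1 lowest in each line. Ncl was higher by 0.51 ± 0.17 (limma, adjusted p = 0.0203), although the groups overlapped. The call of Ncl ended in 5 of 21 alternatives, namely quantile scaling (0.42; limma, adjusted p = 0.0886) and the omission of replicate 2 or 3 of either control group.

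Sdc2 was lower by a log2 fold change of −0.38 ± 0.10 (limma, adjusted p = 0.00448), a call that ended in the fit of all 24 samples (adjusted p = 0.11, limma) and with median-of-ratios scaling (−0.22; limma, adjusted p = 0.0893). That scaling moved the median of all genes from −0.15 to 0.01 and the calls from 3833 lower and 2050 higher to 2842 lower and 2950 higher. Under it Sdc1 (0.36, adjusted p = 0.00306, limma) and Sdc4 (0.42, adjusted p = 0.0106, limma) were past the threshold, whereas as deposited they had 0.20 and 0.26 and were not. The calls of Lrp1 and Ptn held in all alternatives. Mdk was not tested in the filtered fit, and over all genes of the table it was lower in E0771-LG by a log2 fold change of −2.42 ± 0.57 (limma, adjusted p = 0.00316). Ptprz1 (−0.14) and Sdc3 (−1.14) did not pass there (limma, adjusted p = 0.899 and 0.256).

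**Figure D3:**
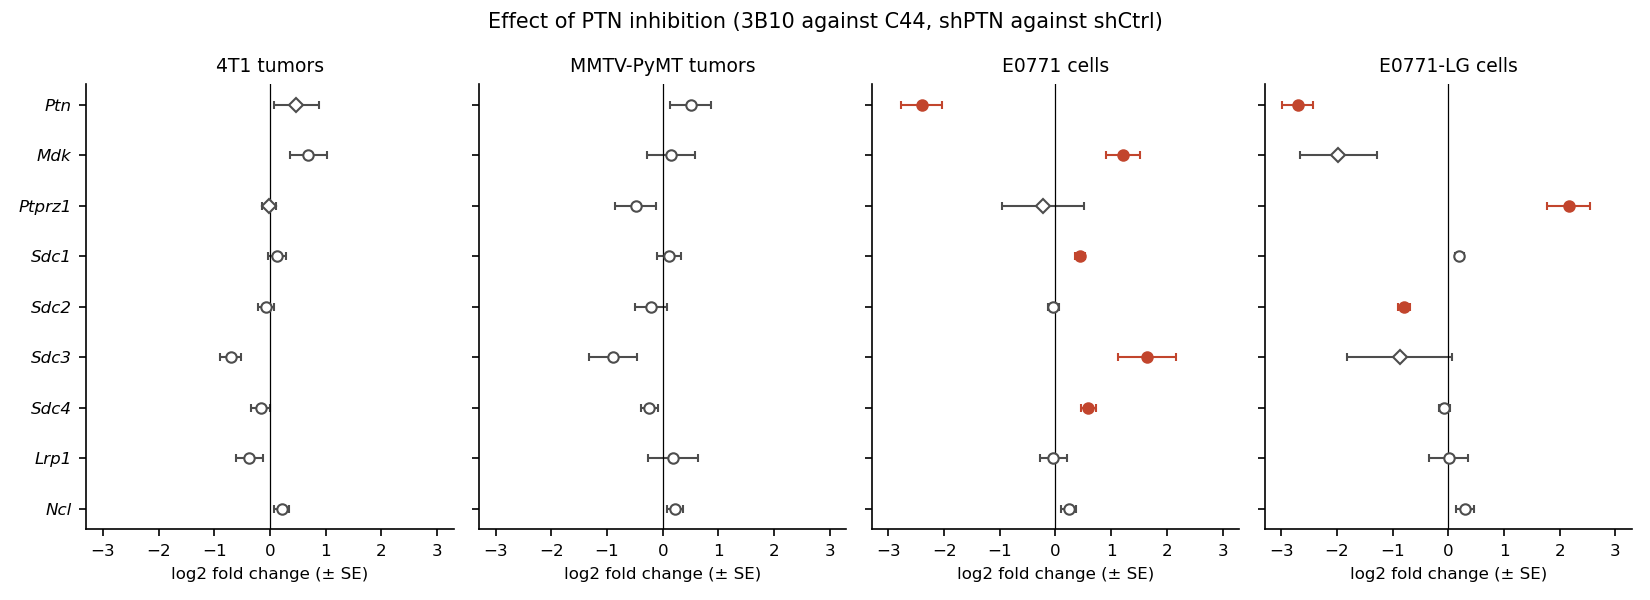
Log2 fold change of each member with PTN inhibition in the 4 experiments, with its SE. Filled marks had an adjusted p under 0.05, open circles were tested and did not pass, and open diamonds did not pass the filter and come from the fit over all genes.

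Ptn is the only member with a filled mark on the same side in both cell lines. In the tumor panels every mark is open.

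Leukocyte transcripts were few in the cultured cells. The leukocyte markers Ptprc, Adgre1, Csf1r and Cd3e were each below 1 off the log scale, as were the epithelial genes Krt19 and Cdh1. The remaining leukocyte marker, Cd68, was 5.45, 15.2 and 10.3 in E0771shCtrl and 5.90, 4.60 and 4.61 in E0771shPTN cells. In E0771-LG cells Cd68 was 1.16, 0.561 and 1.45 with shCtrl and 3.32, 5.82 and 4.82 with shPTN, with no overlap, and it rose by 2.17 on the log2 scale (limma, adjusted p = 0.00207). Some markers of other lineages differed with the shRNA beside the members. Over all genes tested, 11.7% were called lower and 8.89% higher in E0771 cells. In E0771-LG cells these shares were 22.1% lower and 24.3% higher. In E0771 cells the fibroblast markers summed to between 74.85 and 100.9 with shCtrl and between 292.7 and 330.6 with shPTN, and all 5 tested were called higher. One of these, Col3a1, rose by 2.83 (limma, adjusted p = 2.02e-06). Another, Col1a2, passed the filter through its shPTN samples and 1 control. In E0771-LG cells the epithelial markers, led by Krt8, summed to between 157.7 and 203.7 with shCtrl and between 423.7 and 564.3 with shPTN, with all 3 tested called higher. Of these, Krt18 passed the filter only through its shPTN samples, so that it had to be high there to be tested. Cdh1 and Krt19 did not pass the filter. Fibroblast markers in E0771-LG cells summed to between 92.05 and 145.1 with shCtrl and between 58.29 and 73.61 with shPTN, with 2 called lower and 1 higher of 6 tested. That is close to the 46.4% of all genes called there, and Col1a1, called lower, passed the filter only through its controls. Col1a2 passed it in these cells through its shPTN samples and 1 control. Epithelial markers in E0771 cells summed to between 99.14 and 113.8 with shCtrl and between 98.93 and 114.6 with shPTN, and neither of the 2 tested was called. Acta2 moved in opposite directions, at 2.38 in E0771 cells but −2.27 in E0771-LG cells on the log2 scale (limma, adjusted p = 0.000226 and 0.000463).

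No ligand or receptor transcript of this group was past the threshold in tumors of mice given 3B10. In 4T1 tumors, limma called 0 of the 7 members tested at an adjusted p under 0.05 (0% of genes), with no gene of the table past it. At an unadjusted p under 0.05 there was 1 member, Sdc3 (6.27% of genes, 719 in all), and it was also the 1 member without overlap between groups (11.3% of genes). The fit of all 24 samples called 6 genes and no member. The median log2 fold change was −0.07 over the tested members and 0.01 over all genes.

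Sdc3 was 6.87, 6.82 and 6.51 in the 4T1 tumors given C44 and 6.03, 6.35 and 5.71 in those given 3B10. Each 3B10 tumor was below each C44 tumor, with a log2 fold change of −0.70 ± 0.19 (exact permutation p = 0.1, limma adjusted p = 0.722). Sums of leukocyte, of epithelial and of skeletal muscle markers also separated the treatments in these tumors, with those of muscle given below. Leukocyte markers summed to 543.4, 558.8 and 495.7 with C44 and 336.6, 437 and 327.3 with 3B10. Epithelial markers, led by Krt18, summed to 3206, 3463 and 3452 against 4761, 4406 and 5086. Sdc3 had a correlation of 0.97 with the leukocyte, −0.95 with the epithelial and −0.83 with the skeletal muscle sum (n = 6). These pairs are among the strongest of many and are given as description. In *MMTV-PyMT* tumors the correlation of Sdc3 was 0.49 with the leukocyte, 0.15 with the epithelial and −0.09 with the skeletal muscle sum. In bulk tumors, fewer cells of a type and less RNA per cell cannot be told apart.

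Mdk was 2.17, 2.19 and 2.61 with C44 and 2.25, 3.44 and 3.34 with 3B10 in 4T1 tumors. Only 3B10 replicates 2 and 3 were above the controls, and the log2 fold change was 0.69 ± 0.34 (exact permutation p = 0.2, limma adjusted p = 0.837). These replicates also had the most skeletal muscle transcripts, whose markers summed to 39.39, 167 and 254 with 3B10 and to 12.75, 11.77 and 27.11 with C44. Mdk and that sum had a correlation of 0.94 (n = 6, against 0.24 in *MMTV-PyMT* tumors), one of the strongest of many pairs of a member and a marker list. Ptn was −0.19, −0.65 and −0.12 with C44 and −0.76, 0.86 and 0.37 with 3B10, and Ptprz1 lay between −0.98 and −0.79 in all 6 tumors. The lowest value of any gene was −0.98 in each of these tumors, so that Ptprz1 lay at or near it. Ptn and Ptprz1 did not pass the filter, and their groups overlapped.

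The abundant receptors of 4T1 tumors overlapped between treatments. Lrp1 was 7.13, 7.08 and 6.48 with C44 and 6.09, 6.71 and 6.78 with 3B10 (−0.37; limma, adjusted p = 0.889). Sdc4 was 9.25, 9.09 and 8.81 with C44 and 9.14, 8.63 and 8.89 with 3B10 (−0.16; limma, adjusted p = 0.952). Leaving out single tumors gave −0.58 to −0.15 for Lrp1 and −0.29 to −0.04 for Sdc4. Sdc1 was 7.85, 7.87 and 7.46 against 7.71, 8.07 and 7.79, and Sdc2 was 8.54, 8.43 and 8.23 against 8.15, 8.30 and 8.53. Their log2 fold changes of 0.13 and −0.07 changed sign when single tumors were left out. Ncl was 8.37, 8.59 and 8.36 against 8.46, 8.66 and 8.84, a log2 fold change of 0.21 (limma, adjusted p = 0.889).

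*MMTV-PyMT* tumors likewise had no member past the threshold with 3B10. All 9 members were tested, and limma called 0 at an adjusted p under 0.05 (0% of genes), as did voom on the recovered reads. No member had an unadjusted p under 0.05 (2.7% of genes, 307 in all), and groups did not overlap for 1 member, Ncl (8.34% of genes). The median log2 fold change was 0.12 over the members and 0.05 over all genes.

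Ptn in *MMTV-PyMT* tumors was 2.80, 2.73 and 3.42 with C44 and 3.28, 2.95 and 4.22 with 3B10. The highest tumor was 3B10 replicate 3, with 303 reads, and the groups overlapped (0.50 ± 0.37; exact permutation p = 0.3). Without that tumor the log2 fold change of Ptn was 0.13. Mdk was 2.12, 2.72 and 1.31 with C44 and 2.72, 2.07 and 1.80 with 3B10, a log2 fold change of 0.15 that changed sign when single tumors were left out. Ptprz1 was 3.54, 3.90 and 2.66 with C44 and 2.52, 3.27 and 2.85 with 3B10. C44 replicates 1 and 2 were the highest, but replicate 3 lay within the 3B10 range (−0.49 ± 0.37; exact permutation p = 0.3). With single tumors left out, the log2 fold change of Ptprz1 was −0.84 to −0.22.

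Sdc3 was the most variable syndecan of *MMTV-PyMT* tumors, at 6.92, 7.26 and 7.97 with C44 and 7.13, 6.77 and 5.56 with 3B10. C44 replicate 3 was the highest and 3B10 replicate 3 the lowest, with 4703 against 765 reads, and the other tumors overlapped. The log2 fold change was −0.90 ± 0.43 (exact permutation p = 0.2, limma adjusted p = 1), and −0.43 with the tumor left out that moved it most. Sdc1 was 6.95, 7.04 and 6.26 against 7.0, 6.72 and 6.90, and Sdc2 was 6.98, 6.77 and 6.37 against 6.38, 7.09 and 5.99. Both overlapped, with log2 fold changes of 0.12 and −0.22. Sdc4 was 8.87, 8.73 and 8.46 with C44 and 8.36, 8.56 and 8.42 with 3B10, with overlap and a log2 fold change of −0.24.

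Lrp1 was 6.73, 6.88 and 5.33 with C44 and 7.10, 6.07 and 6.33 with 3B10 in *MMTV-PyMT* tumors. C44 replicate 3 was far below the rest (0.19; limma, adjusted p = 1). That tumor also had the lowest sum of fibroblast markers, 1195 against 2260 and 3437 in the other C44 tumors and 2250, 1693 and 1715 with 3B10. Over the 6 tumors the correlation with this sum was 0.87 for Lrp1, 0.89 for Mdk and 0.86 for Sdc1, and Mdk had 0.91 with Fabp4, the only listed adipocyte marker in the table. Epithelial markers summed to 5444, 4985 and 3669 with C44 and 4100, 4648 and 3608 with 3B10. Their correlation was −0.87 with Ptn, 0.83 with Ptprz1, 0.87 with Sdc2 and 0.89 with Sdc4 (n = 6). These are among the strongest of many pairs of a member and a marker list, given as description. In 4T1 tumors the epithelial sum had 0.32 with Ptn, −0.16 with Ptprz1, −0.21 with Sdc2 and −0.35 with Sdc4. The fibroblast sum had 0.36 with Lrp1, 0.68 with Mdk and 0.79 with Sdc1 there, and Fabp4 had 0.17 with Mdk. Ncl in *MMTV-PyMT* tumors was 9.54, 9.72 and 9.58 with C44 and 9.86, 9.73 and 9.91 with 3B10. All 3B10 tumors were above all C44 tumors, by only 0.01 at the closest, and the log2 fold change was 0.22 (limma, adjusted p = 1).

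**Figure D4:**
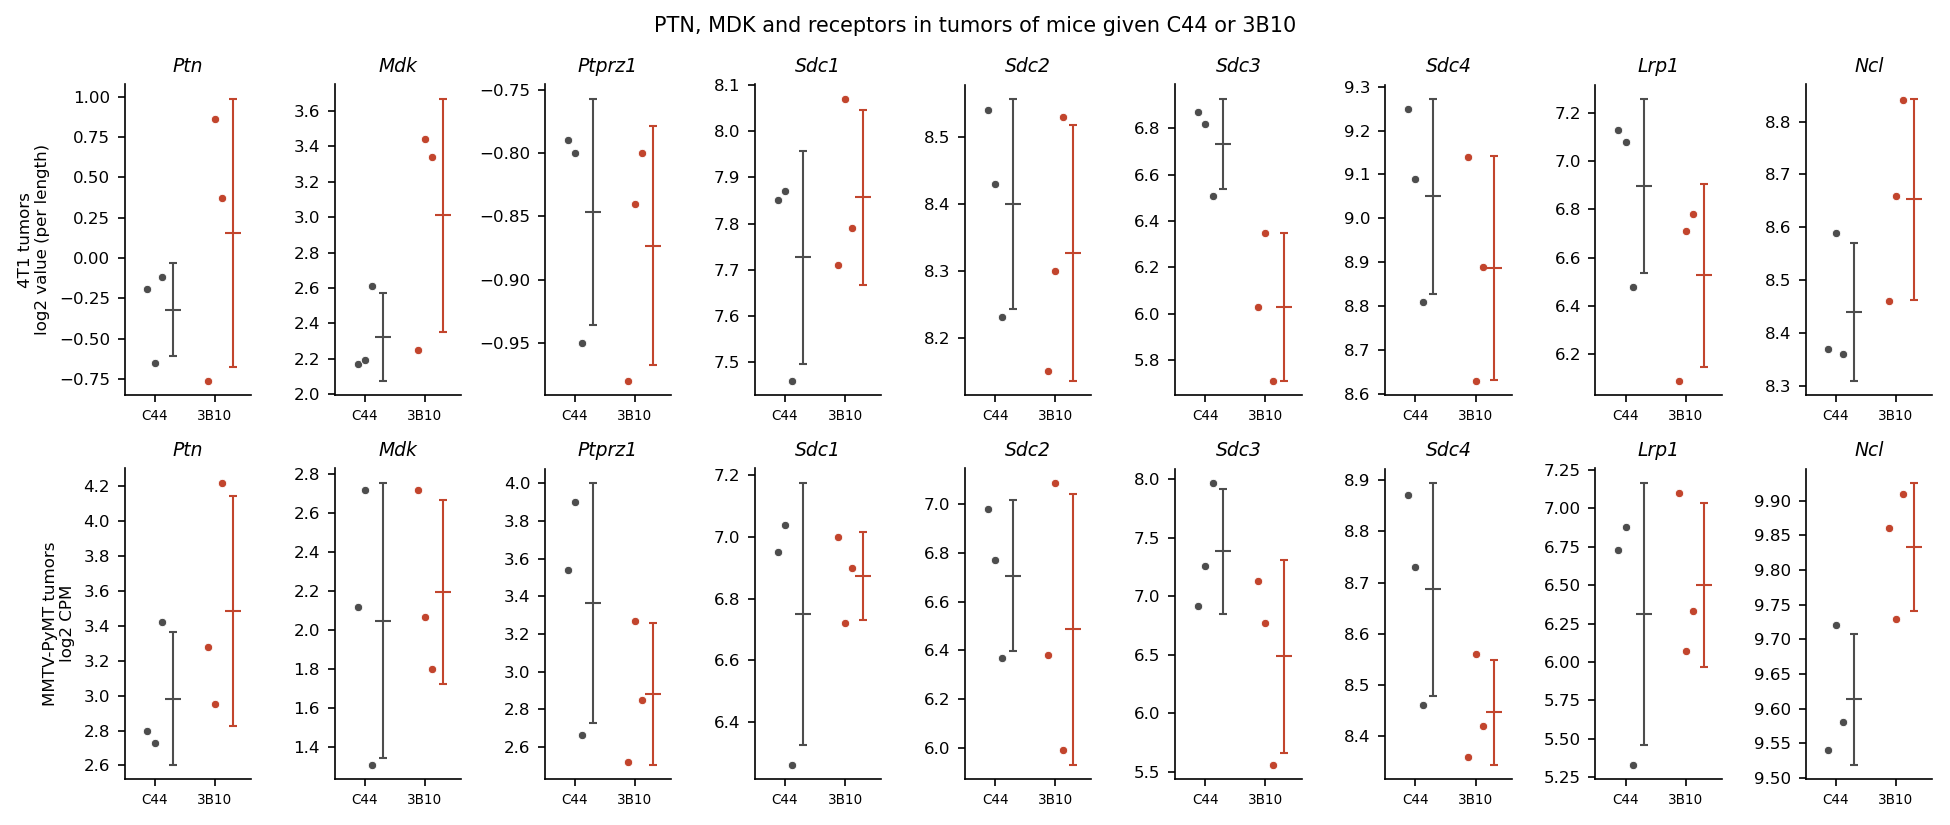
Each member in 4T1 tumors (top, log2 value, taken as per gene length) and *MMTV-PyMT* tumors (bottom, log2 CPM). Points are tumors, and bars show the mean and SD of 3.

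The points of the C44 and 3B10 groups interleave for most members. The exceptions are Sdc3 in the top part and Ncl in the bottom part, and heights cannot be compared between the parts.

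Genes that act beside the members were followed as 6 lists written by hand, of which 65 of 77 genes were in the table. In E0771 cells, 16 of the 57 listed genes tested were called (28.1%), and in E0771-LG cells 29 of 58 (50%). These shares stood at 20.6% and 46.4% over all genes. For the lists below, the shares of all genes were 11.7% lower and 8.89% higher in E0771 cells, and in E0771-LG cells 22.1% lower and 24.3% higher. Among other reported receptors of PTN and MDK, 3 of the 9 tested were called lower with shPTN in E0771 and 6 of 9 in E0771-LG cells, and the rest did not pass the test. The deposited table held 11 of the 13 receptors listed, without Itga4 and without Alk, the gene of the receptor kinase ALK. Itga6, the integrin α6 chain of laminin receptors, was 7.24, 7.69 and 7.43 with shCtrl and 5.71, 5.75 and 5.87 with shPTN in E0771 cells, with the groups far apart. It fell by 1.67 in E0771 and by 1.40 in E0771-LG cells on the log2 scale (limma, adjusted p = 8.79e-06 and 2.42e-05). The hyaluronan receptor Cd44 fell by 0.50 and by 0.57 (limma, adjusted p = 0.0089 and 0.000876). Cd44 also had the smallest p of this list in *MMTV-PyMT* tumors, with 7.10, 7.27 and 7.07 given C44 and 6.61, 6.52 and 6.57 given 3B10 (−0.58; limma, adjusted p = 1).

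Among 12 tested substrates and partners of PTPRZ1 and of the receptor kinase ALK, 7 were lower and 2 higher in E0771-LGshPTN cells. In E0771 cells 1 of 11 was called, the scaffold gene Git1. Git1 fell by 0.32 in E0771 and by 0.40 in E0771-LG cells on the log2 scale (limma, adjusted p = 0.025 and 0.00495). Of 10 syndecan partners and sheddases, 2 were higher in E0771 cells, and 3 were lower and 1 higher in E0771-LG cells. Mmp14, a membrane-bound metalloproteinase, rose in both lines, by 0.68 and 0.49 (limma, adjusted p = 0.00235 and 0.0169). Of 7 other proteoglycan core proteins, 1 was lower and 3 were higher in E0771 cells, whereas 2 were lower and 1 higher in E0771-LG cells. LRP1 partners and LDL receptor relatives split as 2 lower and 2 higher of 10 in E0771 and as 1 lower and 2 higher of 10 in E0771-LG cells. Nucleolar partners of nucleolin split as 1 lower and 1 higher of 10, and as 2 lower and 2 higher of 10. Polr1b, a subunit of RNA polymerase I, fell by 0.48 in E0771 and by 0.63 in E0771-LG cells on the log2 scale (limma, adjusted p = 0.0131 and 0.00325). In tumors no listed gene was called, and the smallest p-values were those of Tgfbr3 in 4T1 tumors (−0.62; limma, adjusted p = 0.722) and Cd44 in *MMTV-PyMT* tumors. The lists received no set test.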

How the data were processed

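RNA had been sequenced in 24 samples, as 4 experiments of 3 control and 3 PTN-inhibited samples. According to the submitters' notes, reads were aligned to mm10 (GRCm38) with HISAT2, counted with featureCounts and analysed with edgeR and limma, with no versions given. The authors deposited log2 values for 12091 genes, and the step that made them was not named. In 18 samples these were log2 CPM with an offset of 0.5 reads, since 100% came out as whole reads within a tolerance of 0.02 reads, with 15.6 to 21.1 M reads on genes per sample. The deposited log2 values of the 6 4T1 tumors were taken as normalized for gene length, which was not tested. The depth of these samples is unknown, and their levels were compared with no other experiment. At these depths a gene at 0 log2 CPM has fewer than 22 reads, so that members near or below 0 are measured coarsely.

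The deposited values of each experiment went into a separate linear model (limma 3.58.1, R 4.3.3) with robust empirical Bayes moderation and a mean trend, and p-values were adjusted by the method of Benjamini and Hochberg. A gene was tested when 3 or more of the 6 samples had a value of 1 or more off the log scale, counted from the lowest value of that sample. The interaction and the comparison of the lines came from a fit of the 12 cell samples, over genes that passed in both lines. Values after ± are SE. Exact permutation tests were also computed for each member. Members outside the filter were described from a fit over all genes of the table, and combining that fit with each other choice was decided after seeing the data. The procedure was tested on simulated data.

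The alternatives were no filter and a stricter filter (5 in place of 1), a fit of all 24 samples (which pools the spread of values on both scales), eBayes with neither the trend nor the robust option, a pseudocount of 1, an adjusted p under 0.01, median-of-ratios and quantile scaling, voom on recovered reads, a replicate block, lengths of the longest transcript, and leaving out each sample. The replicate numbers gave no pairing and entered only the replicate block, 1 of the alternatives counted. All 9 members are named. From each list of related genes, those called in both cell lines with the same sign and the gene with the smallest p in each tumor model are named, and markers were summed off the log scale. Marker genes named singly were chosen after their values were seen. Members and lists were chosen with earlier results of these data known. Positions and exon lengths came from GENCODE on GRCm38, and promoters from RefSeq for GRCm38.p6, in which Mdk and Sdc2 were not matched. Plots were made with Python 3.11.15 and matplotlib 3.10.9. Protein levels and binding are not part of the deposited table and were not analysed, and the bases of the shRNA were not in the files.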

Additional observations from a re-analysis of the deposited data

Results flagged for a closer look

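The responses of Sdc2 and Sdc4 to the PTN shRNA differed between E0771 and E0771-LG cells by the interaction term of the filtered fit over both lines, in which 34.7% of all genes were called. For Sdc2 the term was −0.75 (limma, adjusted p = 0.00133), and for Sdc4 it was −0.66 (limma, adjusted p = 0.0129). Mdk and Ptprz1 did not pass the filter in both lines, and their terms come from the fit over all genes of the table, in which 3580 of 12091 genes were called. For Mdk the term was −3.18 (limma, adjusted p = 0.0111), and −1.58 with a pseudocount of 1. For Ptprz1 it was 2.39 (limma, adjusted p = 0.0499), and it passed the threshold in only 7 of 19 alternatives. The groups of 3 were too small for a test of single outlying samples.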

How the results depend on the processing

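Of the effects in the filtered fits, 640 kept their direction and their side of the threshold in the alternatives, 22 were weaker, 9 were stronger and 33 reversed. In the fits over all genes the numbers were 151, 12, 4 and 10. Of the levels, 36 stayed within their SD with the longest transcript and 18 moved. The 5 members called in E0771 cells became 2 at an adjusted p under 0.01, 3 with the stricter filter, 2 in the fit of all 24 samples, and 3 to 5 when single samples were left out. Of the 2 members called by the interaction, 1 was left at an adjusted p under 0.01 and 1 in the fit of all 24 samples, and 4 were called with no filter. The stricter filters and thresholds call fewer by their construction, and for the other changes the cause was not tested.

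Quantile scaling reversed the log2 fold change of Sdc4 in E0771-LG cells (0.0203), the interaction of Ncl (−0.16) and, with no filter, Ptprz1 between the lines (0.13). Median-of-ratios scaling reversed Lrp1 in E0771-LG cells (−0.0297), the interaction of Lrp1 (−0.0014) and, with no filter, Ptprz1 between the lines (0.0225). Voom reversed Lrp1 in E0771-LG cells (−0.0049). None of these was past the threshold in the filtered fit.

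Leaving out single samples reversed these small effects, with ranges of −0.0022 to 0.20 for Sdc1 and −0.18 to 0.0165 for Sdc2 in 4T1 tumors. In *MMTV-PyMT* tumors they were −0.22 to 0.48 for Mdk, −0.31 to 0.47 for Lrp1, −0.13 to 0.26 for Sdc1 and −0.52 to 0.0329 for Sdc2. In E0771 cells they were −0.31 to 0.18 for Lrp1 and −0.12 to 0.0078 for Sdc2, and in E0771-LG cells −0.13 to 0.0193 for Sdc4 and −0.37 to 0.21 for Lrp1. The interactions ranged from −0.13 to 0.22 for Ncl and from −0.33 to 0.32 for Lrp1. With no filter, Ptprz1 ranged from −0.0728 to 0.0328 in 4T1 tumors, from −0.82 to 0.47 in E0771 cells and from −0.60 to 0.27 between the lines, and Sdc3 from −1.76 to 0.14 in E0771-LG cells. In 4T1 tumors Ncl and Mdk kept their sign, with ranges of 0.12 to 0.31 and 0.48 to 1.07. So did Sdc4 in *MMTV-PyMT* tumors (−0.35 to −0.15), Ncl in E0771 cells (0.0784 to 0.36) and Sdc4 between the lines (0.096 to 0.42).

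With a block for the replicate number, as if equal numbers were a pairing, 0 members were called in 4T1 tumors, 0 in *MMTV-PyMT* tumors, 4 in E0771 cells, 3 in E0771-LG cells, 2 by the interaction and 4 between the lines. The lost call was Sdc3 (1.64, adjusted p = 0.0582), and with no filter the interaction of Ptprz1 was lost as well (adjusted p = 0.0665). Correlations of residuals between samples of the same number ranged from −0.33 to 0.44 in 4T1, −0.04 to 0.21 in *MMTV-PyMT*, −0.04 to 0.14 in E0771 and −0.12 to 0.24 in E0771-LG samples, and so the numbers were not treated as pairs. Voom could not be run for 4T1 tumors, whose reads are not recoverable. Members with few reads are limited by depth, among them Sdc3 and Ptprz1 in cells of either line, Mdk in E0771-LG cells and Ptn in E0771shPTN cells. In 4T1 tumors, whose reads are unknown, Ptn and Ptprz1 did not pass the filter, and Ptprz1 lay at or near the lowest value.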

Other observations

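Across the 12 cell samples, which are 4 groups of 3 and so hold few separate points, the genes most like Ptn were Npepps (correlation 0.97), Cwc25 (0.96), Xpnpep1 (0.96), Larp4 (0.96) and Rbsn (0.95), of 10222 genes. Those most unlike it were Zbtb24 (−0.95), Arpc1a (−0.95) and Trim54 (−0.94). The genes most like Mdk were Tmem164 (0.97), Cand2 (0.97), Cnep1r1 (0.96), Fbxo21 (0.96) and Zfp36l2 (0.96). Among the members, Mdk had correlations of 0.86 with Sdc2, 0.85 with Lrp1 and −0.82 with Ncl, and Ptn had −0.68 with Sdc1. These values are descriptions without a test, and the difference between the lines enters all of them.

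In tumors the genes with the smallest p of each list were all short of the threshold. In 4T1 tumors they were the receptor Notch2 (limma, −0.22, adjusted p = 0.936), the proteoglycan Tgfbr3 (−0.62, adjusted p = 0.722), the kinase Fyn (−0.44, adjusted p = 0.846), heparanase (Hpse, −0.61, adjusted p = 0.741), the LRP1 chaperone Lrpap1 (−0.42, adjusted p = 0.725) and the nucleolar gene Gar1 (0.41, adjusted p = 0.725). In *MMTV-PyMT* tumors they were Cd44 (−0.58), Col18a1 (0.41), Afap1l2 (−0.53), Prkca (0.31), Sorl1 (−0.82) and Gar1 (0.37), each with an adjusted p of 1 (limma).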
